A study of Mus musculus with 14 samples.

Results

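Meiotic recombination in the mouse testis was followed here through 9 genes, Spo11, Mei1, Prdm9, Dmc1, Psmc3ip, Tex15, Msh4, Msh5 and Mlh3, out of 24340 genes with a value in each library. They were taken by name because their proteins make, exchange or resolve the DNA breaks of meiosis. Earlier results of these data were known when they were chosen. In GENCODE M21 (GRCm38) they lie at chr2:172977700-172993576 (Spo11, plus strand), chr15:82069996-82126814 (Mei1, plus), chr17:15543079-15564354 (Prdm9, minus), chr15:79561497-79605109 (Dmc1, minus), chr11:101091823-101095436 (Psmc3ip, minus), chr8:33516738-33585582 (Tex15, plus), chr3:153857149-153906138 (Msh4, minus), chr17:35028605-35046745 (Msh5, minus) and chr12:85234520-85270599 (Mlh3, minus). All 9 had a row, and all 9 passed the filter on low values (at least 1 RPKM, a read count scaled to transcript length and library size, in at least 2 of 14 libraries), Prdm9 through 8 libraries, Spo11 through 12 and the other 7 through all 14. The filter kept 14772 genes.

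RNA from male germ cells of C57BL/6 testes was sequenced in 7 groups of 2 libraries. The P3 groups (postnatal day 3) comprised wild type (WT), a Cre-carrying control with 1 intact copy of each demethylase gene (P3 Ctrl: Vasa-Cre; Jmjd1a-/+; Jmjd1b-/+), loss of Jmjd1a with 1 copy of Jmjd1b left (P3 Jmjd1aKO: Vasa-Cre; Jmjd1a-/-; Jmjd1b-/+), the reverse (P3 Jmjd1bKO: Vasa-Cre; Jmjd1a-/+; Jmjd1b-/-) and loss of both (P3 DKO: Vasa-Cre; Jmjd1a-/-; Jmjd1b-/-). The P7 groups (postnatal day 7) were P7 Ctrl and P7 DKO, of the same genotypes as P3 Ctrl and P3 DKO. Jmjd1a and Jmjd1b (Kdm3a and Kdm3b) encode demethylases acting on lysine 9 of histone H3, and Vasa-Cre deletes in germ cells, so the controls carry Cre and lack 1 copy of each gene. The labels do not say that the 2 libraries of a group came from separate animals, so p-values measure the spread between these libraries only.

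In meiotic prophase, Spo11 with partners such as Mei1 cuts chromosomal DNA at sites that Prdm9 marks by histone methylation. The cut ends are resected, and recombinases such as Dmc1 coat them and invade the homologous chromosome, helped by Psmc3ip (also called Hop2) and its partner Mnd1. The Msh4-Msh5 pair holds the joined molecules, and a nuclease containing Mlh3 resolves them as crossovers. In the mouse testis the earliest meiotic cells appear after the first postnatal week, so germ cells of the ages sampled are mainly spermatogonia and their precursors, in which RNA of several of these genes is already made.

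The libraries carried germ cell RNA, with Ddx4 at 169 to 307 RPKM and Dazl at 299 to 613 RPKM. Late markers were near 0: Acrv1 reached at most 0.258, Prm1 0.733 and Pgk2 1.15 RPKM, although Tnp1 stood at 2.71 to 23.2 RPKM. Kdm3a was at 7.59 to 14.3 RPKM in the groups labelled as lacking it and at 25.4 to 45.2 in the others. Kdm3b was at 4.26 to 7.51 RPKM in the groups labelled as lacking it and at 9.81 to 26.9 in the others. Replicate 2 of P3 Jmjd1aKO and of P3 Jmjd1bKO stood apart: 13 Sertoli cell genes summed to 992 and 1176 RPKM in these libraries against 148 to 319 in the other 12, and 13 Leydig and stromal genes to 94.9 and 97.2 against 10.2 to 23.4. Depth, estimated from the steps of low values, was about 13.5 (P3 WT) to 48.5 (P3 DKO) M fragments, which puts roughly 29 to 343 fragments behind a Spo11 value, 35 to 337 behind a Prdm9 value and at least 7476 behind a Tex15 value.

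Promoter windows (250 bases before to 50 after a transcript start, RefSeq, GRCm38.p6) were found for 7 of the 9 genes, and none for Spo11 and Tex15. Those of the 3 genes that rose in P7 DKO, and of Msh5, whose level lay on the other side of its control, are printed 5′ to 3′ on the strand of the gene, all on the minus strand: Prdm9 at chr17:15564305-15564604, Dmc1 at chr15:79605060-79605359, Psmc3ip at chr11:101095386-101095685 and Msh5 at chr17:35046573-35046872. Capitals mark matches on either strand to the E-box CACGTG, the E2F motif GGCGGGA or the motif CNCCTCAG that has been linked to STRA8, the inducer of meiotic entry.
Prdm9: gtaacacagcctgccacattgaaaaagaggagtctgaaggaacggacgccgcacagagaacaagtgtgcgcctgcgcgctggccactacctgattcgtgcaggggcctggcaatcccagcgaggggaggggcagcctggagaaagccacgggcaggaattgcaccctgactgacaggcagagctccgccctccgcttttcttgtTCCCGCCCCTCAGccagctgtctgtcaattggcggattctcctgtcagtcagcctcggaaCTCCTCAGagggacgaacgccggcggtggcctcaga
Dmc1: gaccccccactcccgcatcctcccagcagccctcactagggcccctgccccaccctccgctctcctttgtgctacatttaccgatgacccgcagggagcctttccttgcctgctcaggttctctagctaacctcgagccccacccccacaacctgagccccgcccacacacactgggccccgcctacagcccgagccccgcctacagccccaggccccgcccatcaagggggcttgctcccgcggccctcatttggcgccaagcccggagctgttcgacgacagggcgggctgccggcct
Psmc3ip: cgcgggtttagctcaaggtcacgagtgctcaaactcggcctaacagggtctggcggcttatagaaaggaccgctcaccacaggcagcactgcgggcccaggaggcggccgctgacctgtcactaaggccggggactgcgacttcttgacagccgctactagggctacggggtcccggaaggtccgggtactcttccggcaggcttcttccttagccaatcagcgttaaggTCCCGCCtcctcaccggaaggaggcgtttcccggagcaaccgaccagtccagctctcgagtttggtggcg
Msh5: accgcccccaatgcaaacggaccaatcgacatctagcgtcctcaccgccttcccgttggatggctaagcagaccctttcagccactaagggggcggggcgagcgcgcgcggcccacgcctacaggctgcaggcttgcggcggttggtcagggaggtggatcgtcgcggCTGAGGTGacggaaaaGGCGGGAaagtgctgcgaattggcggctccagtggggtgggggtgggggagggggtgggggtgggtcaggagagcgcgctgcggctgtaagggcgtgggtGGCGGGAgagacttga

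The Prdm9 window held the E2F motif from position -46, counted from the transcript start, and CNCCTCAG from -41 and from 15; the match at -46 overlaps the one at -41, so they appear as 1 run of capitals. Psmc3ip held the E2F motif from -20, and Msh5 held it from -66 and from 35, with CNCCTCAG from -82. The Dmc1 window held none of these 3 motifs, and neither did those of Msh4, Mlh3 and Mei1. Only the form GGCGGGA was searched for E2F, so windows without it may hold other forms of an E2F site. The windows of Mei1 (chr15:82082226-82082525) and Msh4 (chr3:153904842-153905141) lie inside the gene spans given above. Sequence at the outer starts of these genes was thus not searched. A second Prdm9 window, upstream of an internal start, held the E2F motif from -231. Among 27025 promoters of the same length, 11.4% held GGCGGGA, 7.97% CNCCTCAG and 7.24% the E-box. The E-box was in none of the windows found, which do not cover Spo11 and Tex15. The Dmc1 window was the richest in G and C of the 4 printed, at 69.0%, against 67.3% for Msh5, 62.7% for Psmc3ip, 61.7% for this Prdm9 window and a median of 52.7% over all promoters. Of 2 further motifs searched, CCAAT (37.9% of promoters) was in the Prdm9, Psmc3ip, Msh5 and Mlh3 windows, and TGACGT (7.64%) was in none. The motifs were chosen after the expression values were known, and a match describes letters and not a bound site.

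The levels of the 9 genes spanned a wide range. Tex15, with a mean of 62.2 RPKM over the 14 libraries, was above 88.9% of the genes tested, and Psmc3ip, at 43.2 RPKM, above 83.3%. Dmc1 averaged 24.2 RPKM, Mei1 9.53, Mlh3 8.60, Msh5 3.84, Spo11 2.56 and Msh4 2.52. Prdm9 was the lowest of the 9, with a mean of 1.48 RPKM, above 15.1% of genes tested. The genes also differed in how far they moved: Mei1 ranged 7.75-fold from its lowest to its highest library, Prdm9 6.21-fold and Spo11 5.57-fold, whereas Mlh3 ranged 1.39-fold.

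**Figure D1:**
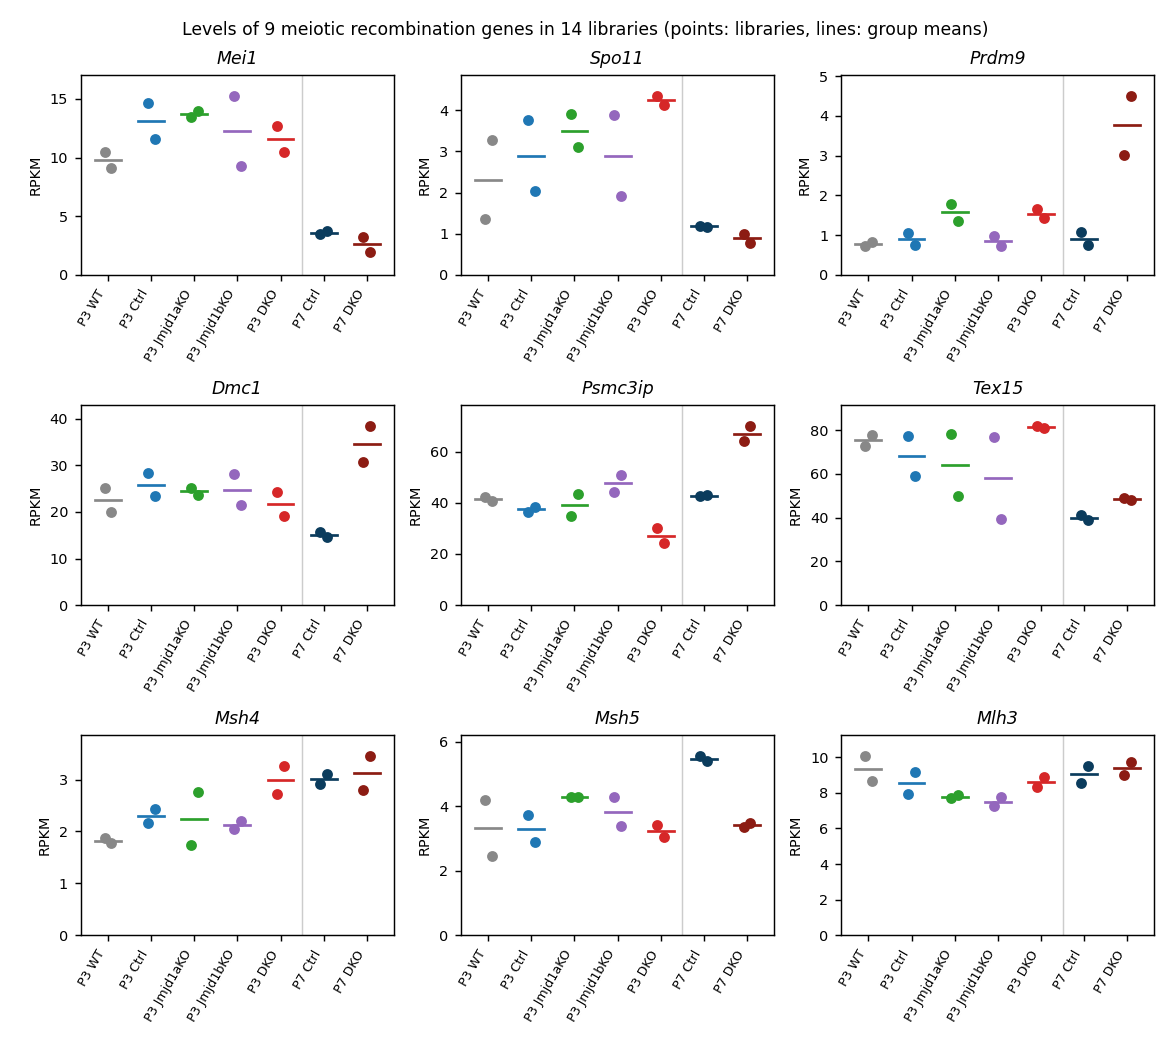
RPKM (vertical axes, each from 0) of the 9 genes in each of 14 libraries (points), with group means (lines), P3 groups left of the grey line and P7 groups right of it. Mei1 is between 9.13 and 15.2 in the day 3 libraries and between 1.97 and 3.71 in the day 7 libraries, and Prdm9 is highest in P7 DKO, at 3.03 and 4.50.

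The break formation genes Mei1 and Spo11 were the ones most lowered at day 7. Mei1, which is required for meiotic breaks, was at 14.7 and 11.6 RPKM in P3 Ctrl, 12.7 and 10.5 in P3 DKO, 3.49 and 3.71 in P7 Ctrl, and 3.26 and 1.97 in P7 DKO. Every day 7 library was below every day 3 library, since P3 WT (10.5 and 9.13), P3 Jmjd1aKO (13.4 and 13.99) and P3 Jmjd1bKO (15.2 and 9.29) were also high. From P3 Ctrl to P7 Ctrl Mei1 fell by 1.61 ± 0.24 (SE) on the log2(RPKM + 1) scale, to 0.274 times its level (limma, adjusted p = 0.00329 over all 14772 genes). From P3 DKO to P7 DKO it fell by 1.82 ± 0.24 (adjusted p = 0.000217), to 0.225 times. Both groups at day 7 overlapped neither each other nor any day 3 group, but the difference between P7 DKO and P7 Ctrl, -0.37 ± 0.24 on the same scale, did not pass (adjusted p = 0.260).

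Spo11, the enzyme that makes the break, was at 3.76 and 2.04 RPKM in P3 Ctrl, 4.35 and 4.14 in P3 DKO, 1.20 and 1.16 in P7 Ctrl, and 0.994 and 0.780 in P7 DKO. P3 DKO held its highest values and P7 DKO its lowest, with no overlap with the neighbouring group at either end. The remaining day 3 groups overlapped one another, at 1.35 and 3.27 in P3 WT, 3.90 and 3.11 in P3 Jmjd1aKO, and 3.89 and 1.92 in P3 Jmjd1bKO. In double knockout cells Spo11 fell by 1.48 ± 0.33 on the log2(RPKM + 1) scale from day 3 to day 7, to 0.209 times (limma, adjusted p = 0.00356). In control cells the difference was -0.80 ± 0.33 (adjusted p = 0.0986), and the difference between these age changes, -0.67 ± 0.46, did not pass either (adjusted p = 0.318). At values near 1 RPKM the added constant of 1 shrinks the log2 difference.

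Prdm9, which sets where breaks are placed, moved the other way. It was at 1.07 and 0.756 RPKM in P7 Ctrl and at 3.03 and 4.50 in P7 DKO, so both double knockout libraries lay above every other library of the series. At day 3 it was at 0.738 and 0.818 in P3 WT, 1.04 and 0.759 in P3 Ctrl, 0.982 and 0.725 in P3 Jmjd1bKO, 1.80 and 1.37 in P3 Jmjd1aKO, and 1.67 and 1.42 in P3 DKO. The groups without Jmjd1a thus stood above P3 Ctrl at day 3, without overlap, but neither difference passed: 0.44 ± 0.19 in P3 Jmjd1aKO (limma, adjusted p = 0.477, unadjusted p = 0.0432) and 0.42 ± 0.19 in P3 DKO (adjusted p = 0.205, unadjusted p = 0.0507), both on the log2(RPKM + 1) scale. At day 7 the rise in double knockout cells was 1.30 ± 0.19 on that scale, 4.12-fold in mean RPKM (adjusted p = 0.000847). P7 Ctrl and P3 Ctrl overlapped, with a difference of 0.01 ± 0.19 (adjusted p = 0.982), whereas P7 DKO was 0.89 ± 0.19 above P3 DKO (adjusted p = 0.00298).

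Among the strand exchange genes, Dmc1 and Psmc3ip rose with joint loss at day 7 and Tex15 did not pass. Dmc1, the meiosis-specific recombinase, was at 15.7 and 14.6 RPKM in P7 Ctrl, the lowest group of the series, and at 30.8 and 38.4 in P7 DKO, the highest. The day 3 groups lay between them and overlapped one another: 25.2 and 20.0 in P3 WT, 28.4 and 23.3 in P3 Ctrl, 25.2 and 23.7 in P3 Jmjd1aKO, 28.2 and 21.4 in P3 Jmjd1bKO, and 24.3 and 19.2 in P3 DKO. In P7 DKO Dmc1 rose by 1.13 ± 0.18 on the log2(RPKM + 1) scale against P7 Ctrl, 2.28-fold (limma, adjusted p = 0.00134). From day 3 to day 7 it fell in control cells, by 0.73 ± 0.18 (adjusted p = 0.0207), and rose in double knockout cells, by 0.65 ± 0.18 (adjusted p = 0.0117).

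The fall of Dmc1 in control cells was lost when any of 3 libraries was left out, P3 Ctrl replicate 1 (adjusted p = 0.140 by limma), P7 Ctrl replicate 1 (0.0906) or P7 Ctrl replicate 2 (0.120). Its rise in double knockout cells between the ages was lost when P3 DKO replicate 2 (adjusted p = 0.0943) or P7 DKO replicate 2 (0.0877) was left out. The difference between P7 DKO and P7 Ctrl passed without each of the 4 day 7 libraries in turn.

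Psmc3ip, which with Mnd1 helps Dmc1 pair strands, was at 42.5 and 43.1 RPKM in P7 Ctrl and at 64.1 and 69.9 in P7 DKO, again above every other library. At day 3 it was lowest in P3 DKO, at 30.2 and 24.2, below the 36.5 and 38.3 of P3 Ctrl without overlap. The other day 3 groups were at 42.2 and 40.5 (P3 WT), 34.7 and 43.3 (P3 Jmjd1aKO) and 44.1 and 51.0 (P3 Jmjd1bKO). The rise at day 7 was 0.63 ± 0.13 on the log2(RPKM + 1) scale, 1.57-fold (limma, adjusted p = 0.00536), while the day 3 difference of -0.45 ± 0.13 did not pass (adjusted p = 0.0765). It did pass, at an adjusted p of 0.0336, when the 2 libraries high in Sertoli cell RNA were left out of the fit. Within double knockout cells Psmc3ip rose by 1.28 ± 0.13 from day 3 to day 7, 2.47-fold (adjusted p = 8.07e-05), whereas in control cells the difference was 0.19 ± 0.13 (adjusted p = 0.313).

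Psmc3ip shares 385 bases with Mlx on the other strand, and whether counting used strand is not given in the sources used here. Mlx went the opposite way, at 23.9 and 24.4 RPKM in P7 Ctrl and 15.2 and 16.4 in P7 DKO, and it fell by 0.58 ± 0.13 on the log2(RPKM + 1) scale (limma, adjusted p = 0.00620). Mnd1, the partner of Psmc3ip, was at 25.0 and 23.0 RPKM in P7 Ctrl and at 26.04 and 27.8 in P7 DKO, with a difference of 0.16 ± 0.21 that did not pass (adjusted p = 0.622). The ratio of Psmc3ip to Mnd1, both per length, was 1.70 and 1.88 in P7 Ctrl and 2.46 and 2.51 in P7 DKO, while at day 3 it ranged from 1.70 to 3.19. This ratio was chosen after the values were seen.

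Tex15, needed for loading the recombinases in spermatocytes and for silencing transposons in younger germ cells, was at 41.2 and 38.7 RPKM in P7 Ctrl and at 48.8 and 47.8 in P7 DKO. The groups did not overlap, but the difference of 0.27 ± 0.28 on the log2(RPKM + 1) scale did not pass (limma, adjusted p = 0.514). At day 3 it was at 72.7 and 77.7 in P3 WT, 77.5 and 59.1 in P3 Ctrl, and 81.8 and 81.0 in P3 DKO. The single knockouts were split by replicate, at 78.1 and 49.8 in P3 Jmjd1aKO and 76.7 and 39.4 in P3 Jmjd1bKO, and in both the lower value was that of the library high in Sertoli and Leydig RNA, whose part in it was not tested. From day 3 to day 7 Tex15 fell in double knockout cells, by 0.74 ± 0.28 (adjusted p = 0.0442), a call lost without any one of the 4 libraries compared (adjusted p 0.111 to 0.131). In control cells the difference was of like size, -0.75 ± 0.28, and did not pass (adjusted p = 0.0790), but it did without the 2 libraries high in Sertoli cell RNA (adjusted p = 0.00336).

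Of the crossover genes, Msh4 and Mlh3 passed in no comparison. Msh4 was at 2.17 and 2.42 RPKM in P3 Ctrl, 2.72 and 3.26 in P3 DKO, 2.91 and 3.10 in P7 Ctrl, and 2.80 and 3.45 in P7 DKO. The last 3 of these groups overlapped. P3 WT had the lowest mean, at 1.87 and 1.77, beside 1.74 and 2.75 in P3 Jmjd1aKO and 2.04 and 2.21 in P3 Jmjd1bKO. Mlh3, a subunit of the nuclease that resolves crossovers, stayed between 7.25 RPKM (P3 Jmjd1bKO) and 10.05 (P3 WT) in all 14 libraries. Its difference between P7 DKO and P7 Ctrl was 0.05 on the log2(RPKM + 1) scale with a 95% interval of -0.22 to 0.32, and that of Msh4 was 0.04 with an interval of -0.35 to 0.42.

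Msh5, the partner of Msh4, was highest in P7 Ctrl, at 5.54 and 5.40 RPKM, with no overlap with any other group. In P7 DKO it was at 3.35 and 3.48, within the range of the day 3 groups. Those were at 4.20 and 2.47 in P3 WT, 3.72 and 2.89 in P3 Ctrl, 4.28 and 4.29 in P3 Jmjd1aKO, 4.27 and 3.40 in P3 Jmjd1bKO, and 3.42 and 3.06 in P3 DKO. The difference of -0.55 ± 0.20 on the log2(RPKM + 1) scale between P7 DKO and P7 Ctrl fell just short of the threshold (limma, adjusted p = 0.0534), and so did that of 0.60 ± 0.20 between P7 Ctrl and P3 Ctrl (adjusted p = 0.0525). These comparisons share the P7 Ctrl libraries. The ratio of Msh5 to Msh4, computed after the values were seen, was 1.91 and 1.74 in P7 Ctrl and 1.20 and 1.01 in P7 DKO, while at day 3 it ranged from 0.938 in a P3 DKO library to 2.45 in a P3 Jmjd1aKO library.

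With joint loss at day 7, 3 of the 9 genes rose and 0 fell, Prdm9, Dmc1 and Psmc3ip, one from the placing of breaks and a pair from strand exchange. Over all genes tested 33.5% passed in this comparison, 17.4% upward and 16.1% downward, so 3 of 9 is close to the share among all genes. The median difference of the 9 was 0.05 on the log2(RPKM + 1) scale, against 0.02 over all genes. Libraries did not overlap for 7 of the 9, where 73.5% of all genes did not. All of the 3 calls held in each of 13 alternative fits, Prdm9 with differences of 1.08 to 1.92, Dmc1 of 0.98 to 1.29 and Psmc3ip of 0.54 to 0.70. With 2 libraries against 2, an exact permutation test cannot give a two-sided p below 0.333, so each call rests on the spread shared by all 7 groups.

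In bulk RNA, fewer cells of a type and less RNA per cell cannot be told apart, and RNA of germ cell stage markers moved with genotype at day 7. Among all genes tested, 17.4% rose and 16.1% fell in P7 DKO against P7 Ctrl, the shares to set beside the counts that follow. Of 20 genes of undifferentiated spermatogonia 17 fell and 0 rose in P7 DKO, with a summed level of 604 and 321 RPKM against 1724 and 1742 in P7 Ctrl. Of 14 tested genes of differentiation and meiotic entry 8 rose, 2 fell and 4 did not pass, summing to 1299 and 1411 RPKM against 743.5 and 729.8. Stra8 was at 172 and 276 against 61.0 and 56.0, and Kit at 12.3 and 14.1 against 8.10 and 7.26. Both were higher in P7 DKO and do not stand for the 2 genes that fell, which are not named here. The part of these stage markers in the changes of Prdm9, Dmc1 and Psmc3ip was not tested. The 14 spermatocyte and spermatid genes summed to 24.3 and 26.9 RPKM in P7 DKO against 36.1 and 35.4 in P7 Ctrl. Prm1 was listed at 0 in both P7 DKO libraries, but also in both P3 WT libraries, P7 Ctrl replicate 1 and P3 Jmjd1aKO replicate 2. The 13 Sertoli genes summed to 207 and 319 RPKM against 239 and 259, and of 12 tested 0 rose and 1 fell. The 13 Leydig and stromal genes summed to 10.2 and 11.5 RPKM against 23.4 and 22.4, and 7 endothelial genes to 17.5 and 15.7 against 28.6 and 34.3.

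**Figure D2:**
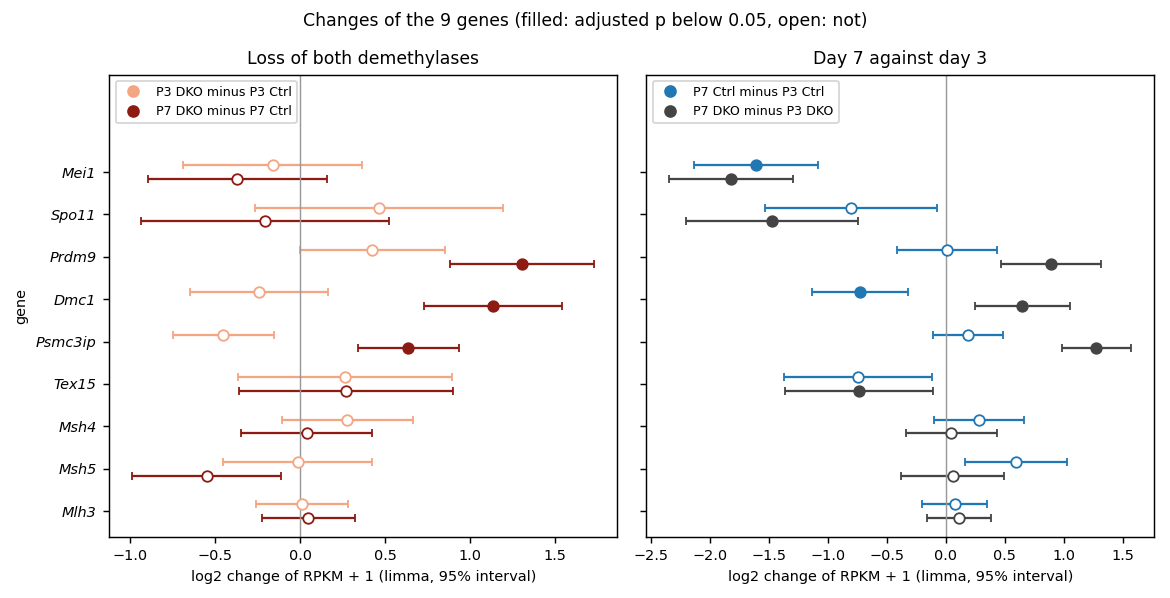
Log2 differences of RPKM + 1 (horizontal axes) with 95% intervals for the 9 genes, DKO minus Ctrl at P3 and P7 on the left and P7 minus P3 in Ctrl and DKO cells on the right; filled points have an adjusted p below 0.05. Prdm9, Dmc1 and Psmc3ip are filled at P7 on the left, at 1.30, 1.13 and 0.63, and Mei1 is filled in both series on the right.

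The changes of the 3 genes with joint loss differed between the ages. For Dmc1 the day 7 change exceeded that at day 3 (-0.24 ± 0.18) by 1.38 ± 0.26 on the log2(RPKM + 1) scale (limma interaction, adjusted p = 0.00556). For Psmc3ip, at -0.45 on day 3, the excess was 1.09 ± 0.19 (adjusted p = 0.00408). For Prdm9 it was 0.88 ± 0.27 (adjusted p = 0.0412), a weaker call that was lost in 9 of 17 alternative fits, among them those leaving out one of the P3 Ctrl libraries (0.106 for replicate 1, 0.0637 for replicate 2), the P3 DKO libraries (0.0752 and 0.128), the P7 Ctrl libraries (0.0737 and 0.147) or P7 DKO replicate 2 (0.125). Over all genes 22.9% passed this test, 12.2% upward and 10.7% downward (1800 and 1583 genes), a split that became 2269 and 1250 when each library was centred on its median. Of the 9 genes 3 passed, all upward.

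Day 7 against day 3 in control cells, 2 of the 9 fell, Mei1 and Dmc1, and 0 rose, where 23.3% of all genes passed, 9.94% upward and 13.4% downward. Libraries did not overlap for 7 of the 9, against 74.2% of all genes. Leaving out any 1 library gave 485 to 2503 called genes in place of 3441. In double knockout cells 6 of the 9 passed, 3 up (Prdm9, Dmc1, Psmc3ip) and 3 down (Spo11, Mei1, Tex15), where 58.3% of all genes passed, 27.8% upward and 30.5% downward, and libraries did not overlap for 7 of the 9, against 80.1% of all genes. Both counts were close to the share among all genes. The control comparison shares its P7 Ctrl libraries with the day 7 knockout comparison, so a low P7 Ctrl value of Dmc1 enters both. Stage marker RNA moved between the ages as well. Of 20 genes of undifferentiated spermatogonia, 15 fell and 1 rose in double knockout cells, and 2 fell and 6 rose in control cells. The 14 differentiation and meiotic entry genes had 2 lower and 6 higher in the former, and 6 lower and 3 higher in the latter. The part of these markers in the age changes of the 9 genes was not tested.

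At day 3 none of the 9 passed in any comparison with limma. Against P3 Ctrl, 0 of 9 passed in P3 DKO, where 4.47% of all genes did (322 up and 339 down, or 277 and 503 with each library centred on its median), and 1 of 9, Psmc3ip, had an unadjusted p under 0.05. In P3 Jmjd1aKO, where 0.0338% of all genes passed, the 1 gene with an unadjusted p under 0.05 was Prdm9. In P3 Jmjd1bKO, where 0.0203% passed, it was Psmc3ip, at a difference of 0.33 ± 0.13 on the log2(RPKM + 1) scale (unadjusted p = 0.0305, adjusted p = 0.965). Replicate 2 of each single knockout was the library high in Sertoli and Leydig RNA, and some differences changed sign without it while others did not. That of Tex15 went from -0.12 to 0.20 in P3 Jmjd1aKO and from -0.29 to 0.18 in P3 Jmjd1bKO. The absence of calls there thus does not show an absence of effect. P3 Ctrl differed from P3 WT in 0.704% of all genes, in 0 of the 9, and in 0 of the 9 at an unadjusted p under 0.05. Leaving out any 1 of the 4 libraries gave 8 to 134 called genes in P3 DKO against P3 Ctrl, in place of 661, and 3 to 227 in P3 Ctrl against P3 WT, in place of 104. Libraries did not overlap for 5 of the 9 in P3 DKO (58.7% of all genes), with Spo11, Prdm9, Msh4 and Tex15 higher and Psmc3ip lower, and for 3 of the 9 in P3 Jmjd1aKO (35.9%), 2 in P3 Jmjd1bKO (21.6%) and 3 in P3 Ctrl against P3 WT (63.5%).

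The rest of the pathway was read from 4 further lists. Of 10 tested genes for break formation and its control, 5 rose and 0 fell in P7 DKO against P7 Ctrl, with a median difference of 0.36 on the log2(RPKM + 1) scale. The shares among all genes were 17.4% upward and 16.1% downward. Hormad1, an axis protein that promotes breaks, was at 26.01 and 29.97 RPKM in P7 Ctrl and 68.7 and 98.2 in P7 DKO, a difference of 1.52 ± 0.33 (limma, adjusted p = 0.00619). Its relative Hormad2 rose by 0.73 ± 0.14. Hells, a chromatin remodeler that works with Prdm9, rose by 0.47 ± 0.15 (193 and 200 to 270 and 276 RPKM). Zcwpw1, a reader of the marks Prdm9 writes, rose by 0.42 ± 0.13 (86.7 and 85.4 to 105 and 128 RPKM). Leaving out 1 library gave 1 to 4 genes that rose in this list: the Hormad1 call was lost without P7 DKO replicate 2 (adjusted p = 0.0520), that of Hells without any 1 of the 4 libraries, and that of Zcwpw1 without either P7 Ctrl library or without P7 DKO replicate 2. The calls of Hells and Zcwpw1 were also lost with quantile normalization, and that of Hells without a filter (limma, adjusted p up to 0.201 for Hells and 0.226 for Zcwpw1 over all alternatives).

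Of 32 genes for end resection and strand exchange, 6 rose and 3 fell, with a median of 0.17. In P7 DKO against P7 Ctrl, 17.4% of all genes rose and 16.1% fell, so the upward count was close to that share. Spata22, a partner of Meiob on single-stranded DNA, rose most, by 1.74 ± 0.45, from 3.49 and 2.80 RPKM to 9.54 and 17.0. Exo1, the resection nuclease, rose by 0.87 ± 0.21, from 16.5 and 17.1 to 30.1 and 32.9 RPKM. Sfr1, an accessory factor of strand exchange, fell by 0.73 ± 0.13, from 238 and 246 to 136 and 157 RPKM, and Xrcc3, a homologous repair factor, fell by 0.55 ± 0.17. Of these genes Sfr1 passed without each library in turn, while Spata22, Exo1 and Xrcc3 did not pass without either P7 Ctrl library or without P7 DKO replicate 2 (limma, highest adjusted p 0.114, 0.0631 and 0.163; Xrcc3 was also lost with quantile normalization), and leaving out 1 library gave 0 to 6 genes of the list that rose and 1 to 3 that fell.

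Of 14 tested crossover genes besides Msh4, Msh5 and Mlh3, 3 rose and 2 fell, with a median of 0.04. Both counts were close to the shares among all genes, 17.4% upward and 16.1% downward. Hfm1, a meiotic helicase, rose by 1.44 ± 0.24, from 5.79 and 5.77 to 17.6 and 17.1 RPKM. Ccnb1ip1 (Hei10), a ubiquitin ligase of crossover sites, rose by 1.15 ± 0.14. Prr19 fell by 1.31 ± 0.18, from 39.1 and 36.9 to 13.1 and 16.6 RPKM, and the nuclease scaffold Slx4 by 0.82 ± 0.24. Hfm1, Ccnb1ip1 and Prr19 passed in all 13 alternative fits, and Slx4 did not pass without either P7 Ctrl library or without P7 DKO replicate 1, nor with quantile normalization (limma, adjusted p up to 0.153).

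The 13 genes of synapsis and meiotic cohesin, which hold chromosomes in register while recombination runs, had 10 higher, 0 lower and a median of 0.85. The 4 with the largest differences were Sycp1 (1.34 ± 0.20, from 47.9 and 50.04 to 113 and 140 RPKM), Stag3 (1.28 ± 0.14), Sycp3 (1.28 ± 0.25) and 4930447C04Rik, also known as Six6os1 (1.16 ± 0.29). Over all genes tested, 17.4% rose and 16.1% fell, the 5th to 95th percentile of the difference was -1.11 to 1.0003 and the median 0.02. Sycp1, Stag3 and Sycp3 passed in all 13 alternative fits, 4930447C04Rik did not pass without either P7 Ctrl library or without P7 DKO replicate 2 (adjusted p up to 0.103), and leaving out 1 library gave 6 to 9 genes of the list that rose.

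**Figure D3:**
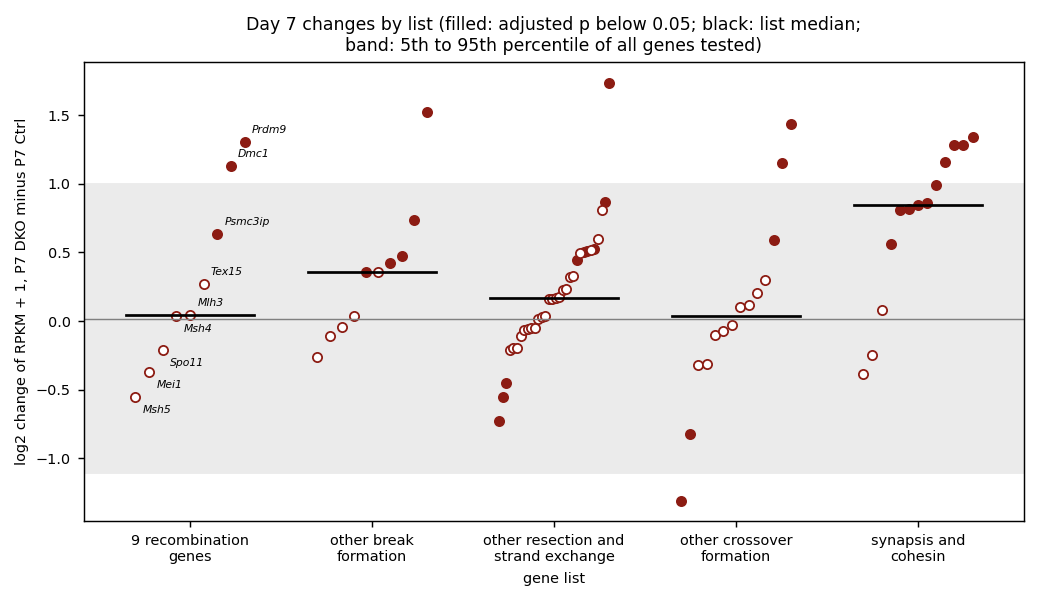
Log2 difference of RPKM + 1 between P7 DKO and P7 Ctrl (vertical axis) for each tested gene of 5 lists, ordered by value within a list; filled points have an adjusted p below 0.05, black lines are list medians and the grey band is the 5th to 95th percentile of all genes tested. The 9 genes run from -0.55 (Msh5) to 1.30 (Prdm9) around a median of 0.05, while the synapsis and cohesin list has a median of 0.85.

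At day 3, joint loss lowered Trip13, an ATPase that removes Hormad proteins, by 0.79 ± 0.11, from 44.5 and 51.0 RPKM in P3 Ctrl to 28.5 and 25.9 in P3 DKO (limma, adjusted p = 0.0141), the 1 of 10 break formation genes to pass. Of the 32 strand exchange genes 0 rose and 3 fell, where 4.47% of all genes passed. Among the 3 were Rad51ap1, lower by 0.71 ± 0.14, and the single-strand binding subunit Rpa2, lower by 0.58 ± 0.11. The calls of Trip13, Rad51ap1 and Rpa2 were each lost without P3 Ctrl replicate 2 or P3 DKO replicate 2, those of Rad51ap1 and Rpa2 also without 1 further library, and all of them with only the libraries of these groups (adjusted p up to 0.220). None of the 14 crossover or 13 synapsis genes passed; Tex11 and Prr19 (-0.07 and 0.05) and Syce2 and Syce3 (-0.27 and -0.24) had the highest levels of those lists. In P3 Jmjd1aKO, P3 Jmjd1bKO and P3 Ctrl against P3 WT, 0 genes of the 4 lists passed. Among all genes 0.0338%, 0.0203% and 0.704% passed in these comparisons. There the 8 genes with the highest levels (Hells, Zcwpw1, Swi5, Sfr1, Tex11, Prr19, Syce2 and Syce3) differed by -0.45 to 0.04 in P3 Jmjd1aKO, -0.18 to 0.14 in P3 Jmjd1bKO and -0.50 to 0.68 in P3 Ctrl against P3 WT.

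From day 3 to day 7 in control cells, Cxxc1, a partner of Prdm9, rose by 0.61 ± 0.17, the 1 of 10 break formation genes to pass. Among all genes 9.94% rose and 13.4% fell in this comparison. Of the 32 strand exchange genes 6 rose and 1 fell, led by Spata22, which fell by 1.68 ± 0.45, with Rpa3 up by 1.002 ± 0.19 and Sfr1 up by 0.68 ± 0.13. In the crossover list 0 of 14 passed, with Tex11 at 0.27 and Prr19 at -0.14. In the synapsis list 3 of 13 fell: Syce3 by 1.04 ± 0.21, Tex12 by 0.93 ± 0.21 and Meikin by 0.87 ± 0.23. All 7 genes named for control cells lost their call without P3 Ctrl replicate 1 and without either P7 Ctrl library (adjusted p up to 0.206), Tex12 and Meikin also without P3 Ctrl replicate 2 and Meikin with quantile normalization. In double knockout cells 6 of 10, 19 of 32, 7 of 14 and 7 of 13 genes rose across the 4 lists. The counts that fell were 0, 0, 1 and 2, where 27.8% of all genes rose and 30.5% fell. Examples there were Trip13 (1.16 ± 0.11), Hormad2 (0.97 ± 0.14), Hells (0.93 ± 0.15), Exo1 (1.73 ± 0.21), Rpa3 (1.64 ± 0.19), Rad51ap1 (1.62 ± 0.14), Eme1 (1.22 ± 0.22), Ccnb1ip1 (0.87 ± 0.14) and Sycp1 (1.65 ± 0.20) upward, and Prr19 (-1.49 ± 0.18), Rad21l (-1.45 ± 0.22) and Syce3 (-1.19 ± 0.21) downward, and all 12 passed in each of 13 alternative fits.

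The signed difference between double knockout and control was higher at day 7 than at day 3 for 4 of 10, 6 of 32, 1 of 14 and 5 of 13 genes of these lists, and lower for 0, 1, 1 and 1. By the same test, 12.2% of all genes passed upward and 10.7% downward. Exo1 (1.54 ± 0.29) and Rad51ap1 (1.21 ± 0.20) led the strand exchange genes, on the side of Dmc1 and Psmc3ip. Trip13 (1.14 ± 0.16), Hells (0.90 ± 0.21) and Rec114, a break-promoting partner of Mei4 (0.63 ± 0.20), led the break formation genes. Ccnb1ip1 (1.23 ± 0.19) and Prr19 (-1.36 ± 0.25) were the pair that passed among crossover genes. Sycp1 (1.44 ± 0.29), Syce2 (1.11 ± 0.21) and Stag3 (1.005 ± 0.20) led the synapsis list. Of the genes named here all but Rec114 and Hells passed in each of 17 alternative fits. Rec114 did not pass without any 1 library other than P3 Ctrl replicate 1 (adjusted p up to 0.145), nor without a filter or with quantile normalization (up to 0.263). Hells did not pass without P3 DKO replicate 2 or P7 Ctrl replicate 1 (adjusted p up to 0.0582), nor with quantile normalization (0.133).

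How the 9 genes varied together was described by Pearson correlations of log2(RPKM + 1) over the 14 libraries. These share groups, ages and a laboratory, so r mixes differences between ages with those between libraries, and the 10 day 3 libraries are given beside it. Spo11 and Mei1 had the highest r among the 9, 0.86, which was 0.50 within day 3. Spo11 and Prdm9 were at -0.27 over all 14 but 0.75 within day 3, and Dmc1 and Mei1 at 0.01 and 0.81. Psmc3ip followed Stra8 in both sets, with r = 0.94 and 0.87. Within day 3, r with the Sertoli gene Amh was 0.57 for Psmc3ip and 0.72 for Stra8, so the libraries high in Sertoli RNA enter this value. Prdm9 followed the axis gene Sycp3 with r = 0.90, and 0.59 within day 3, while Psmc3ip and Sycp3 were at 0.50 and -0.78. Msh4 and Msh5, whose proteins work as a pair, were at 0.16 and -0.16. Tex15 and the Sertoli gene Amh were at -0.39 over 14 libraries and -0.81 within day 3, where the 2 libraries high in Sertoli RNA lie.

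**Figure D4:**
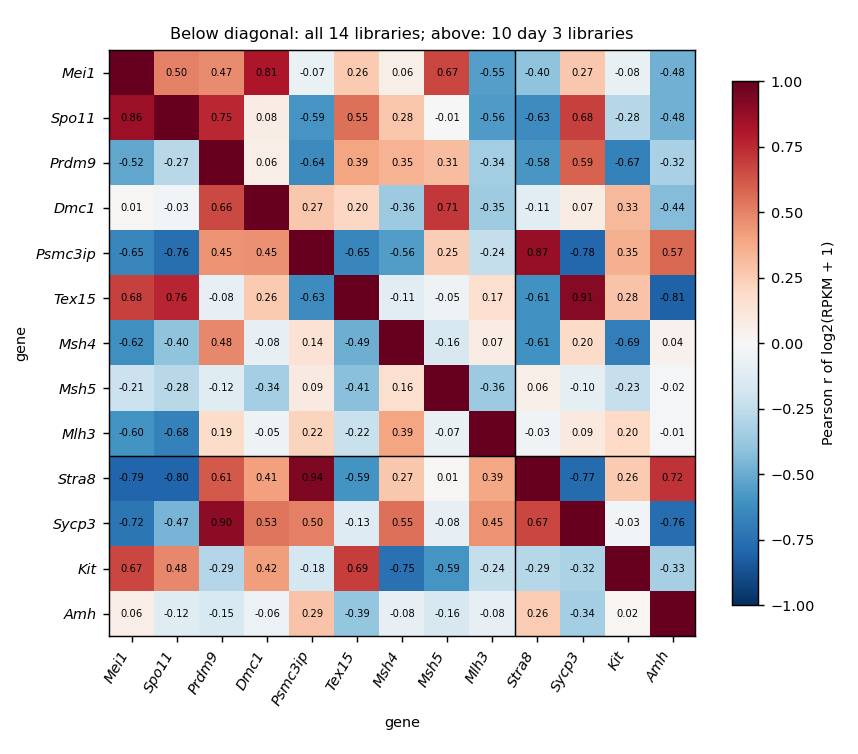
Pearson r of log2(RPKM + 1) between pairs of the 9 genes and 4 cell state markers (both axes are genes, colour is r), over all 14 libraries below the diagonal and over the 10 day 3 libraries above it. Spo11 with Mei1 is 0.86 below and 0.50 above the diagonal, and Psmc3ip with Stra8 is 0.94 and 0.87.

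Over all 14 libraries, the named genes most like each member were found by the same r. For Mei1 they were Arap3 (0.989), Rltpr (0.985) and Pacsin1 (0.980), and for Psmc3ip Hmgn2 (0.9865), Rbm8a (0.982) and Pmf1 (0.971). For Prdm9 they were Ube2q1, Pcmt1 and Xlr (0.967 to 0.964), for Spo11 Ccdc63, Oas3 and Glyctk (0.965 to 0.958), for Tex15 Pikfyve, Atr and Patl2 (0.955 to 0.937) and for Dmc1 Uap1l1, Larp7 and Ap3d1 (0.945 to 0.924). The closest genes were less close for Mlh3 (Mettl4, Uba6 and Mterf3, 0.9255 to 0.892), Msh5 (Tjap1, Sapcd1 and Upb1, 0.909 to 0.881) and Msh4 (Zfp61, the meiotic cohesin Rec8 and Snx1, 0.874 to 0.864). Sapcd1 lies 588 bases from Msh5 on the same strand of chromosome 17, and it was at 2.05 and 2.49 RPKM in P7 Ctrl and 0.978 and 1.53 in P7 DKO.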

How the data were processed

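The authors deposited 1 table of RPKM per library. Per the labels' protocols, RNA was extracted with an AllPrep kit and libraries were made with a stranded TruSeq mRNA kit; per the submitters' processing notes, TopHat2 2.1.1, Cufflinks 2.1.1 and mm10 were used, and the gene annotation and the use of strand in counting are not given in the sources used here. From the deposited RPKM, genes reaching 1 RPKM in 2 or more of the 14 libraries were kept (14772 tested, 9568 removed), transformed to log2(RPKM + 1) and fitted with limma 3.58.1 in R 4.3.3, 1 coefficient per group over all 14 libraries, trended variances, 7 residual degrees of freedom. P-values, two-sided, were adjusted by Benjamini-Hochberg over all genes tested, with a threshold of 0.05, for 8 comparisons. A log2 change on this scale understates that of low genes. Code was tested on simulated data. Every member is named; from each pathway list the up to 4 (day 7 joint loss) or 3 (elsewhere) largest changes past the threshold are named, else the 2 highest genes, and for each member the 3 genes of highest Pearson r, predicted genes left out. Results for some genes of the lists are not reported here. The members and lists were chosen with earlier results of these data known; an older name of Meioc was added after the tables were read. Alternatives were pseudocounts of 0.1 and 0.5, no filter, a filter of 0.5 RPKM, quantile normalization, median-centring, only the groups compared, a replicate block, leaving out each library, and, added after seeing the data, leaving out both libraries high in Sertoli RNA and applying all of these to the lists. Depth was estimated from single-transcript genes whose values step by whole fragments; 58.2 to 69.8% of values lay within 0.2 of a whole number, where chance gives 40%, so it is approximate. Positions are from GENCODE M21 and promoter sequences from RefSeq (GRCm38.p6).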

Additional observations from a re-analysis of the deposited data

Results flagged for a closer look

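The change with joint loss of Jmjd1a and Jmjd1b differed between day 7 and day 3 for 3 of the 9 genes by the limma interaction test. The day 7 minus day 3 difference was 1.38 on the log2(RPKM + 1) scale for Dmc1 (higher in P7 DKO than in P7 Ctrl in both libraries, overlapping at day 3), 1.09 for Psmc3ip (lower without overlap at day 3, higher without overlap at day 7) and 0.88 for Prdm9 (higher without overlap at both ages). The adjusted p-values over all genes were 0.00556, 0.00408 and 0.0412. The interaction uses the P3 Ctrl and P7 Ctrl libraries once each, so a low P7 Ctrl level, as for Dmc1, enters it.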

How the results depend on the processing

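Over 72 pairs of a gene and a comparison and 970 alternative fits, 0 called values reversed. Of values not called in either fit, 62 changed sign, so the direction of many uncalled differences was not stable. Of the 14 called pairs 10 passed in every alternative, and 51 of the 58 uncalled pairs passed in none. The count of the 9 genes called stayed within 1.5 times in every alternative, with the following exceptions. Without the 2 libraries high in Sertoli RNA, P3 DKO against P3 Ctrl had 1 call (Psmc3ip) and P7 Ctrl against P3 Ctrl had 4. With only the libraries of the groups compared, P7 DKO against P7 Ctrl had 5 (Msh5 at an adjusted p of 0.0250 and Tex15 at 0.0433 added) and P7 Ctrl against P3 Ctrl had 4; fewer libraries then set the spread. The other causes were not tested. Leaving out 1 library gave 1 to 2 calls in P7 Ctrl against P3 Ctrl, 3 to 3 in P7 DKO against P7 Ctrl, 4 to 5 in P7 DKO against P3 DKO and 2 to 3 in the interaction; the group left with 1 library was taken to vary like the others. Dmc1 between the ages in double knockout cells was also lost with quantile normalization (adjusted p = 0.0630), Tex15 without a filter (0.0613) and with median-centring (0.0722), and the Prdm9 interaction with pseudocounts of 0.1 (0.0782) and 0.5 (0.0537); Msh4 (0.0465) and Msh5 (0.0406) between the ages in double knockout cells, and Msh5 in control cells (0.0354), passed with quantile normalization.

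With the replicate number as a block, P7 DKO against P7 Ctrl had 4 calls (Msh5 added, adjusted p = 0.0293) and P7 Ctrl against P3 Ctrl had 4 (Msh5, 0.0282, and Tex15, 0.0388, added). The labels give the numbers no shared animal, litter or day, so they were not taken as pairs; correlations of same-numbered libraries' deviations ran from -0.13 to 0.581 between groups, 0.005 for P7 DKO and P7 Ctrl and 0.079 for P7 Ctrl and P3 Ctrl.

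Counts over all genes moved more. Over the alternatives they ran from 3 to 2199 for P3 Ctrl against P3 WT (104 as reported), 3 to 12 for P3 Jmjd1aKO (5), 2 to 15 for P3 Jmjd1bKO (3), 8 to 1914 for P3 DKO (661), 2600 to 5905 for P7 DKO against P7 Ctrl (4954), 485 to 5220 for P7 Ctrl against P3 Ctrl (3441), 6679 to 10774 for P7 DKO against P3 DKO (8616) and 1627 to 4659 for the interaction (3383). For P3 DKO, leaving out any 1 library left 8 to 134 genes, and for P7 Ctrl against P3 Ctrl 485 to 2503. Spo11, Prdm9 and Msh4 rest on few fragments in the shallowest libraries.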
